A study of Xenopus tropicalis with 12 samples.

Results

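The genes described here are those whose mRNA was higher after T3 in tadpole brain and was also higher after T3 in tadpoles that carry a mutation in *thra*, the gene for thyroid hormone receptor alpha. They were chosen from the measured values: a gene model with an XLOC identifier was a member if its mean CPM (the count of a feature scaled to the total of its library) was at least 1.4 times as high in WT T3 as in WT vehicle and at least 1.3 times as high in KO T3 as in KO vehicle, if its WT T3 mean was at least 1 CPM, and if all 3 T3 libraries lay above all 3 vehicle libraries in each genotype. Of 22820 XLOC gene models, among 33875 features in all, 80 met both parts of the rule, and 9 of them were set aside by identifier (*thrb*, *klf9*, *dio3*, *igf2*, *nr3c2*, *pim3*, *traf3* and a pair of gene models of *thibz*), which left 71 members. The WT part alone was met by 373 gene models, so that 293 were induced in WT without meeting the KO part.

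The study sequenced RNA of the preoptic area, thalamus and hypothalamus of *Xenopus tropicalis* tadpoles at Nieuwkoop-Faber stage 54, dissected with the pituitary, in 12 libraries. The groups were KO T3, KO vehicle, WT T3 and WT vehicle, with 3 libraries each, and each library pooled 5 tadpoles. T3, the active thyroid hormone, was given at 5 nM in the aquarium water for 16 h. The sample labels and the study's methods give dilute NaOH as the vehicle, whereas the series text gives DMSO. KO is the label of tadpoles homozygous for a TALEN mutation upstream of the DNA-binding domain of the receptor (the study's thra mt-exon4), bred from heterozygous frogs of a line made in another laboratory, whereas the WT frogs came from a commercial supplier. The sources used here do not say that the WT tadpoles were siblings of the KO tadpoles, so genotype and genetic background cannot be told apart. No identifier was paired with *thra*, and the genotypes were taken from the labels.

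Thyroid hormone acts through a pair of nuclear receptors, TR alpha and TR beta, which bind DNA with or without hormone. Without hormone they recruit corepressors and hold target genes low, and with hormone they recruit coactivators. TR alpha is the receptor found widely in tadpole tissues before metamorphosis, and the gene for TR beta is itself induced by the hormone. A *thra* mutant still carries the gene for TR beta.

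Libraries held 41012459 to 67603703 counts. All 5 brain markers and both neurohormones were present in every library (summed level of *myt1l*, *neurod2*, *elavl3*, *snap25* and *lhx6* 1329 to 1477 CPM). Summed markers of epithelium and inner ear were 10.02 to 47.3 CPM in KO T3, 11.27 to 17.5 CPM in KO vehicle, 30.6 to 42.8 CPM in WT T3 and 10.6 to 13.2 CPM in WT vehicle, the highest KO T3 value being that of replicate 3. Of the 7 genes, 1 in KO T3, 2 in KO vehicle, none in WT T3 and 1 in WT vehicle had a count of 0 in at least 1 library. Summed *oxt* and *avp* were 158 to 171 CPM in KO T3, 107 to 183 CPM in KO vehicle, 242 to 285 CPM in WT T3 and 152 to 199 CPM in WT vehicle. Summed markers of neural progenitors or glia were 2036 to 2188 CPM in KO T3, 2164 to 2286 CPM in KO vehicle, 2396 to 2510 CPM in WT T3 and 2102 to 2315 CPM in WT vehicle. Summed muscle markers, among them gene models shared with other genes, were 141 to 152 CPM in KO T3, 112 to 156 CPM in KO vehicle, 188 to 207 CPM in WT T3 and 130.2 to 146 CPM in WT vehicle. All 5 lists, brain included, were thus higher in every WT T3 library than in every WT vehicle library, and all but the list of epithelium and inner ear were lower in every KO T3 library than in every WT T3 library. Marker identifiers came through the study's table of genes it called in WT on these same samples. The markers were therefore tied to the WT response beforehand, and no shift in cell content is read from these differences. No member belongs to these lists, and their part in the differences between genotypes was not tested. In bulk RNA, fewer cells of a type and less RNA per cell cannot be told apart.

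All 71 members passed the filter on low counts, and 3 of them had fewer than 10 counts in at least 1 library. A symbol could be given to 44 members, through the study's table of genes it called in WT on these same samples, so a symbol is not independent of the WT response. Of the 27 others, 10 are not in the part of that table used here. The members were longer and less abundant than most: their median length was 4924 bases, against 3460 bases for all XLOC gene models tested, and their median level in WT vehicle was 4.86 TPM (a level per length, scaled to the library), against 16.2 TPM. For the median member the counts were not whole numbers in 100% of the libraries, as for XLOC gene models in general, because a read that fits several features was shared among them.

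The sizes of the responses to T3 chose the members and are given as a description. The 3 T3 libraries lay above the 3 vehicle libraries for all 71 members by the rule, as they did for 8.79% of all 22018 features tested in KO and 15.3% in WT, and lay below them for 6.5% in KO and 17.2% in WT. The median log2 fold change of the members was 0.67 in KO and 0.80 in WT, against 0.12 in KO and 0.62 in WT for the 293 gene models that met the WT part alone. Relative to the WT vehicle means, the median member stood at 0.38, 0.58 and 0.57 (log2) in the KO T3 libraries, −0.20, −0.31 and −0.10 in KO vehicle, 0.88, 0.68 and 0.75 in WT T3, and −0.03, 0.02 and −0.01 in WT vehicle. By this measure the median member was thus lowest in KO vehicle and highest in WT T3, with KO T3 in between and below every WT T3 library. The rule favours low vehicle values and high T3 values in either genotype. This order is therefore shaped by the choice of members, and nothing is read from it. As a share of all counts, however, the members overlapped between the vehicle groups, at 0.203% to 0.225% in KO and 0.191% to 0.223% in WT. This share weighs members by their level. The most abundant of them, XLOC_014132, alone had 521 to 657 CPM in KO vehicle and 300 to 429 CPM in WT vehicle. The response in KO was smaller than in WT for 46 members and larger for 25, and the median difference of the responses was −0.16. Of the gene models that met the WT part, 2 were lower after T3 in KO by 1.3-fold or more with separate libraries. The share of all features at this fold is not given here, and nothing is read from that count.

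**Figure D1:**
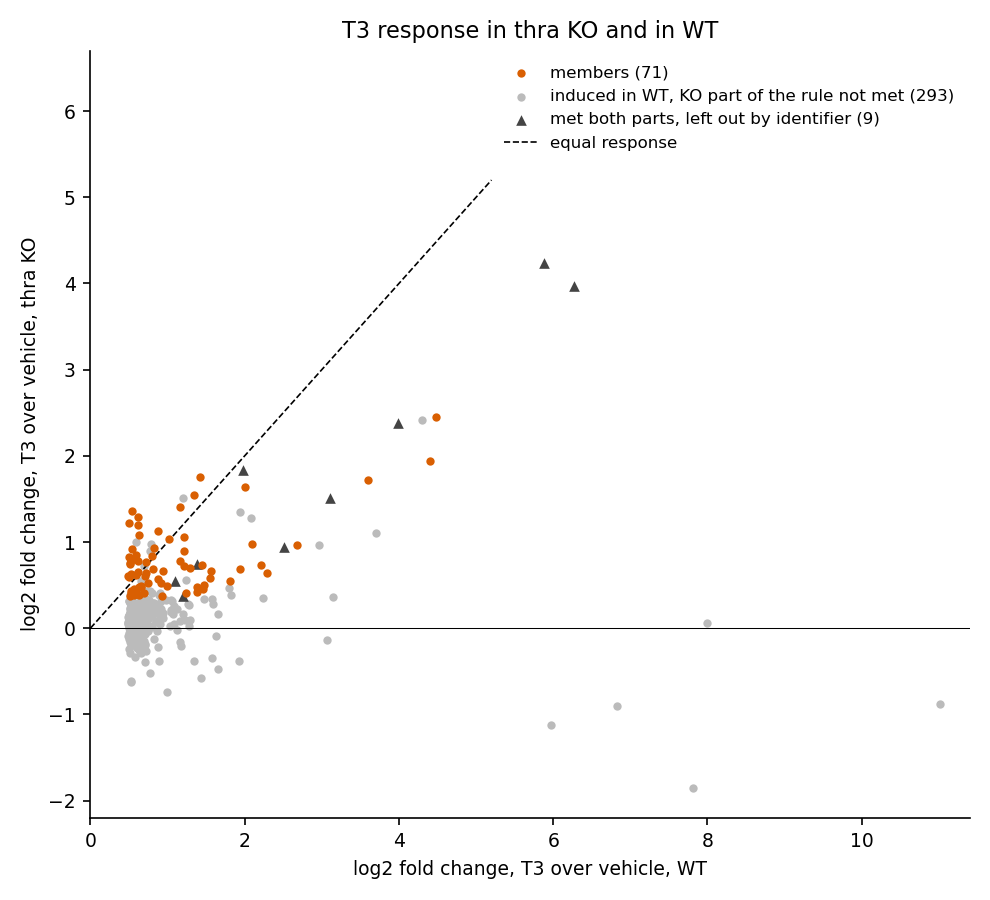
Log2 fold change of T3 over vehicle in thra KO (vertical axis) against that in WT (horizontal axis) for the 71 members, the 293 gene models that met only the WT part of the rule and the 9 left out by identifier. Of the 27 members with a WT log2 fold change of 1 or more, 4 lie on or above the line of equal response, as do 21 of the 44 with a smaller one.

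As a share of the WT log2 fold change, the KO response ran from 28.1% to 251% with a median of 74.5%. It was under 50% for 17 members, 50% to 100% for 29, and 100% or more for 25. Of the 27 members with a WT log2 fold change of 1 or more, 15 kept under 50% (median 46.6%) and 4 kept 100% or more. Of the 44 members with a smaller WT response, 2 kept under 50% (median 87.2%) and 21 kept 100% or more. The rule itself requires 78.0% at the WT limit of 1.4-fold, so weakly induced members could not appear with small shares, whereas for strongly induced ones any share down to the KO limit was possible.

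The gene models nearest the limits show how fine the division is. Just inside the KO limit of 1.3 were *fhod3* (KO ratio 1.31, WT ratio 1.89), *adam12* (1.31 and 1.42) and *tekt3* (1.32 and 1.54). Just outside it were XLOC_037113 (1.28 and 2.74), *slc13a5* (1.28 and 1.64) and *fstl3* (1.28 and 2.98), which had separate libraries in both genotypes. At the WT limit of 1.4, *slc25a32* (KO ratio 1.54, WT ratio 1.4005), XLOC_017340 (1.53 and 1.4026) and XLOC_036432 (2.34 and 1.41) fell inside, and *mtr* (1.77 and 1.3991), *fam198a* (1.39 and 1.39) and XLOC_013612 (1.54 and 1.37) fell outside.

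Among the transcription factors, the induction in KO was mostly a partial one. *nfic* encodes a nuclear factor I protein that binds CCAAT-like sites. Its CPM was 66.8, 67.6 and 65.9 in KO T3, 41.4, 37.4 and 40.2 in KO vehicle, 116, 99.2 and 107 in WT T3, and 24.5, 24.5 and 20.7 in WT vehicle. No library of one group reached another group, and the 4 groups stood, from low to high, in the order WT vehicle, KO vehicle, KO T3, WT T3. The log2 fold change with T3 was 0.74 ± 0.08 (SE) in KO and 2.21 ± 0.08 in WT, so that KO kept 33.4% of the WT response.

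*bcl6*, a zinc finger repressor, and *nacc2*, a BTB domain repressor, likewise had KO T3 libraries that all lay below WT T3 and above KO vehicle. *bcl6* had 48.1, 45.1 and 49.3 CPM in KO T3, 31.1, 34.3 and 34.4 CPM in KO vehicle, 75.5, 71.1 and 79.3 CPM in WT T3, and 24.3, 25.4 and 32.1 CPM in WT vehicle. *nacc2* had 66.9, 60.4 and 60.8 CPM in KO T3, 39.4, 35.4 and 38.2 CPM in KO vehicle, 102, 89.3 and 107 CPM in WT T3, and 48.4, 41.7 and 39.0 CPM in WT vehicle. The share of the WT response seen in KO was 34.2% for *bcl6* and 59.5% for *nacc2*.

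*sox12*, a SoxC factor of neural progenitors in mammals, kept 57.0%, with 16.8 ± 1.34 CPM in KO T3, 11.6 ± 2.38 CPM in KO vehicle, 27.6 ± 2.28 CPM in WT T3 and 14.7 ± 2.09 CPM in WT vehicle (SD, n = 3 each). *prdm1*, a zinc finger repressor, was low, with a mean of 2.05 CPM in KO T3, 1.41 CPM in KO vehicle, 2.45 CPM in WT T3 and 1.46 CPM in WT vehicle. Its response was 0.53 ± 0.24 (SE) in KO and 0.75 ± 0.24 in WT, too imprecise to tell a partial response from a full one. Its genotypes overlapped with T3 and without it. For *fosl2* (Fra-2), a subunit of the AP-1 dimer, the KO response (0.61 ± 0.10) and the WT response (0.59 ± 0.11) were of one size. It had 14.5, 12.8 and 13.6 CPM in KO T3, 8.67, 9.99 and 7.84 CPM in KO vehicle, 12.3, 13.3 and 12.9 CPM in WT T3, and 9.05, 8.98 and 7.58 CPM in WT vehicle, and the genotypes overlapped with T3 and without it.

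**Figure D2:**
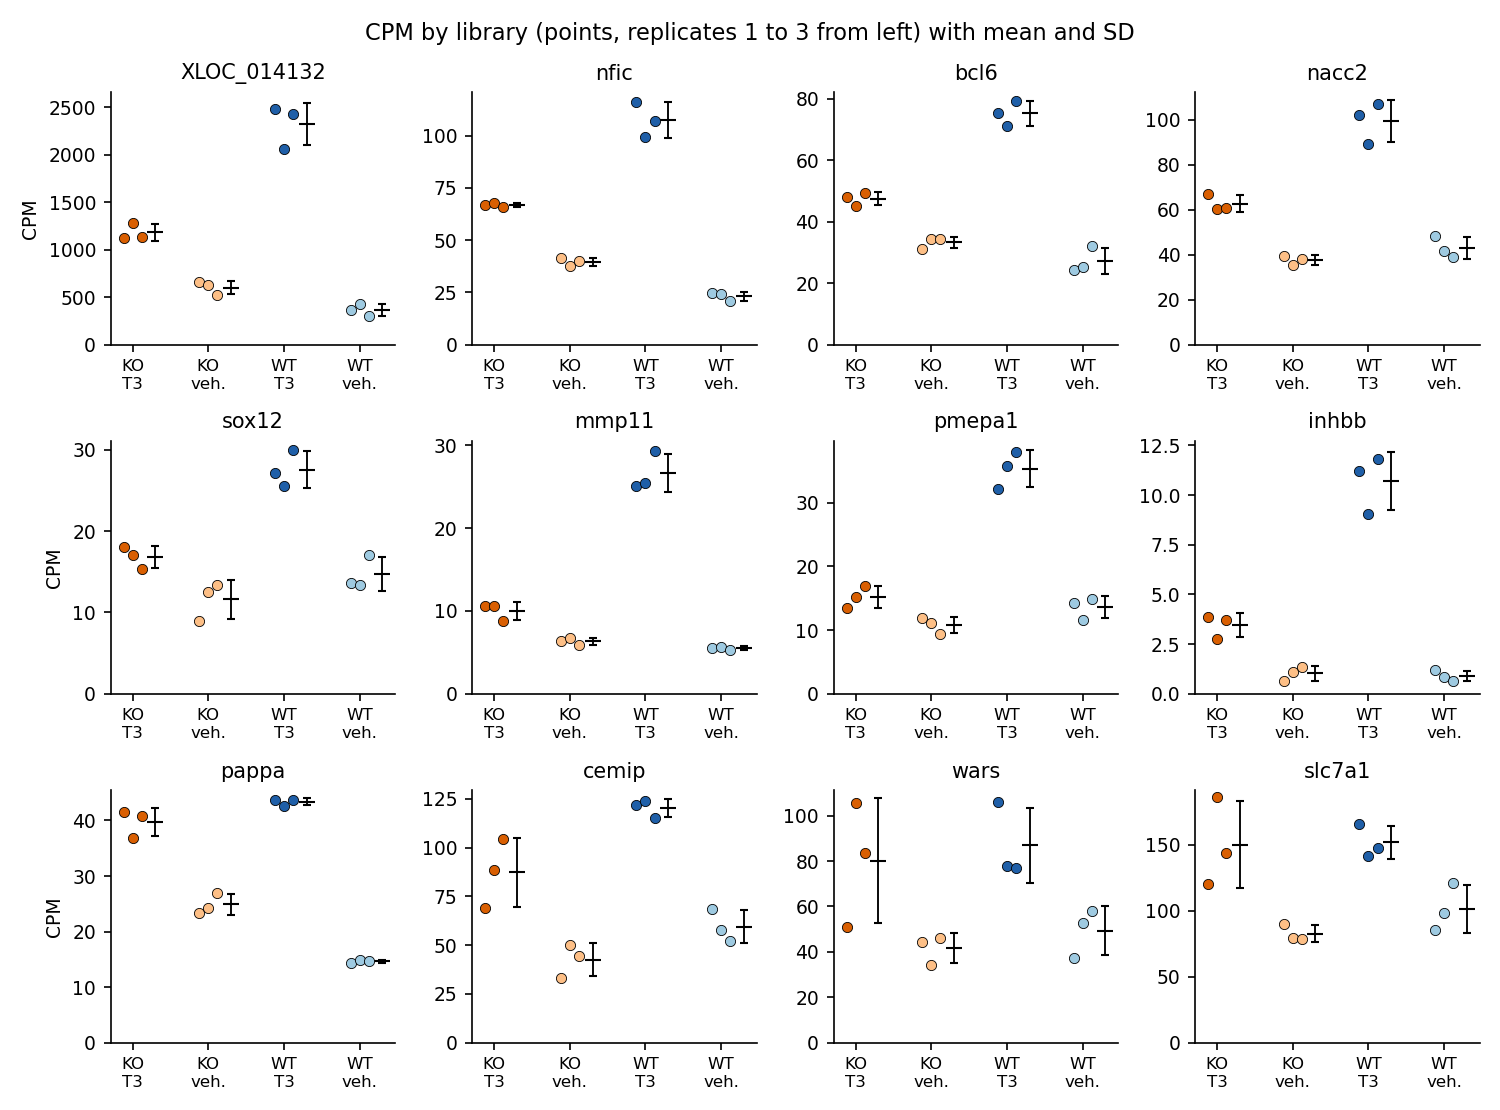
CPM in each library (points, replicates 1 to 3 from the left) with mean and SD for 12 members; each panel has its own vertical axis from 0, and the groups from the left are KO T3, KO vehicle, WT T3 and WT vehicle. For nfic the KO vehicle libraries (37.4 to 41.4 CPM) lie above the WT vehicle libraries (20.7 to 24.5 CPM), while for wars the KO T3 libraries spread over 51.1 to 106 CPM.

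Signalling members included genes of the TGF-beta and insulin-like growth factor systems. *inhbb* encodes the subunit of activin B and inhibin B. It was at 3.86, 2.75 and 3.72 CPM in KO T3, 0.641, 1.08 and 1.36 CPM in KO vehicle, 11.2, 9.05 and 11.8 CPM in WT T3, and 1.17, 0.835 and 0.653 CPM in WT vehicle. This was one of the largest inductions among named members, 3.35-fold in KO and 12.1-fold in WT, and every KO T3 library lay well below every WT T3 library.

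*pmepa1*, known in mammals as a target and inhibitor of TGF-beta signalling, had 13.5, 15.1 and 16.9 CPM in KO T3, 11.9, 11.1 and 9.44 CPM in KO vehicle, 32.2, 35.8 and 38.0 CPM in WT T3, and 14.3, 11.6 and 14.9 CPM in WT vehicle. Its KO T3 libraries were thus about as high as its WT vehicle libraries, which they overlapped, and it kept 34.8% of the WT response. *pappa* encodes pappalysin, a protease that cleaves IGF-binding proteins and so frees IGF. It had 41.5, 36.8 and 40.8 CPM in KO T3, 23.4, 24.3 and 27.0 CPM in KO vehicle, 43.8, 42.6 and 43.7 CPM in WT T3, and 14.4, 15.0 and 14.7 CPM in WT vehicle. Unlike *inhbb* and *pmepa1*, *pappa* ended near the WT level with T3 and began above it without T3, so its smaller fold change in KO (1.595, against 2.95 in WT) came with a higher level in KO vehicle. *wisp1*, a secreted CCN family protein, was low in all groups, at 1.02 ± 0.0807 CPM in KO T3, 0.534 ± 0.0458 CPM in KO vehicle, 2.51 ± 0.063 CPM in WT T3 and 1.08 ± 0.355 CPM in WT vehicle (SD, n = 3 each).

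Genes of the extracellular matrix and its proteases supplied 6 members, of 19 in that list, which holds genes that the study called in WT. They split by how much of the response KO kept. *mmp11* (stromelysin 3), a matrix metalloprotease long known as a T3 response gene of frog metamorphosis, kept the smallest share of any member, 28.1%. It had 10.6, 10.6 and 8.75 CPM in KO T3, 6.33, 6.76 and 5.94 CPM in KO vehicle, 25.1, 25.4 and 29.3 CPM in WT T3, and 5.55, 5.69 and 5.23 CPM in WT vehicle. In contrast, *cemip*, which takes part in hyaluronan breakdown, was 2.05-fold higher with T3 in KO and 2.02-fold higher in WT, but at lower levels in KO: 69.0, 88.7 and 104 CPM in KO T3 and 33.3, 50.2 and 44.2 CPM in KO vehicle, against 122, 124 and 115 CPM in WT T3 and 68.7, 57.7 and 52.3 CPM in WT vehicle.

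Of the ADAMTS and ADAM proteases, *adamts10*, which acts in microfibril assembly in mammals, was 2.21-fold higher with T3 in KO and 1.83-fold higher in WT, with 12.3, 11.5 and 14.2 CPM in KO T3, 5.40, 5.67 and 6.09 CPM in KO vehicle, 14.2, 13.7 and 14.8 CPM in WT T3, and 9.42, 7.78 and 6.19 CPM in WT vehicle. *adamts14*, a procollagen N-propeptidase, had 3.80, 12.1 and 8.81 CPM in KO T3, 2.23, 2.12 and 2.91 CPM in KO vehicle, 12.3, 8.74 and 8.25 CPM in WT T3, and 2.90, 3.56 and 4.55 CPM in WT vehicle. The lowest KO T3 library of *adamts14* was therefore below the highest WT vehicle library. *adamts3*, another procollagen N-propeptidase, averaged 30.7 CPM in KO T3, 22.8 CPM in KO vehicle, 46.7 CPM in WT T3 and 29.0 CPM in WT vehicle, and *adam12* averaged 4.30, 3.28, 4.95 and 3.48 CPM in these groups.

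A further set of members serves protein synthesis and its supply of amino acids and one-carbon units: *wars*, *lars* and *farsb* (the tRNA synthetases for tryptophan and leucine and the beta subunit of that for phenylalanine), *slc7a1* (a cationic amino acid transporter), *mthfd1l* and *slc25a32* (an enzyme and a carrier of mitochondrial folate metabolism), *malsu1* (a factor of the large mitochondrial ribosomal subunit) and *nle1* (a ribosome assembly factor). All of these but *nle1* (68.3%) had at least as large a log2 fold change in KO as in WT, between 104% and 147% of it. This does not hold for the lists that 6 of them come from. Of 27 gene models of ribosome biogenesis and tRNA synthesis, 15 met the WT part of the rule and 4 were members. The median log2 fold change of that list was 0.16 in KO and 0.52 in WT. Of 22 gene models of transport and metabolism, 21 met the WT part and 4 were members (medians 0.20 in KO and 0.72 in WT). *wars* had 51.1, 106 and 83.6 CPM in KO T3, 44.5, 34.2 and 46.3 CPM in KO vehicle, 106, 77.6 and 77.0 CPM in WT T3, and 37.1, 52.9 and 58.2 CPM in WT vehicle. *lars* had 115, 167 and 149 CPM in KO T3, 96.6, 70.3 and 105 CPM in KO vehicle, 174, 151 and 170 CPM in WT T3, and 96.8, 112 and 115 CPM in WT vehicle. *slc7a1* had 120, 186 and 144 CPM in KO T3, 90.2, 79.2 and 78.6 CPM in KO vehicle, 166, 142 and 148 CPM in WT T3, and 85.2, 97.9 and 121 CPM in WT vehicle. In all 3 genes KO T3 replicate 1 was the lowest of its group. It was below the highest WT vehicle library for *wars* and *slc7a1* and level with it for *lars* (115.02 CPM, against 115.01 CPM in WT vehicle replicate 3).

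That unevenness was shared. Summed over the 3 tRNA synthetase genes, the libraries had 237, 387 and 334 CPM in KO T3, 197, 142 and 217 CPM in KO vehicle, 398, 331 and 361 CPM in WT T3, and 191, 231 and 242 CPM in WT vehicle. KO T3 replicate 1 therefore exceeded the highest KO vehicle library by little and stayed below the highest WT vehicle library. The deviation of each library from its group mean (log2 CPM) was correlated with the mean deviation of the 3 genes at r of at least 0.8 for 12 of the 68 other members, against 0.661% of the 15121 XLOC gene models outside the members with a mean of at least 1 CPM. These are correlations over 12 libraries that share depth and preparation, looked at after the values were seen, and they are given as a description.

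The 12 were *malsu1* (r = 0.98), *slc35g1* (0.92), *slc25a32* (0.89), *adamts14* (0.88), *gins3* (0.83), a subunit of the GINS complex of DNA replication, and 7 gene models with no symbol, among them XLOC_019051 (0.96). None of the 7 is in the part of the study's table used here. In all 12 the KO response was larger than the WT response, at 119% to 251% of it (median 167%), against a median of 69.8% for the 56 members that did not follow. Of the 12, *adamts14* alone had a WT log2 fold change of 1 or more. The rule allows smaller shares at such responses (median 46.6%) than at weaker ones (median 87.2%), so the 12 and the 56 are not like sets. KO T3 replicate 1 was the lowest KO T3 library in all 12, KO vehicle replicate 2 the lowest KO vehicle library in all 12, and WT vehicle replicate 1 the lowest WT vehicle library in 11. The median SE of the KO log2 fold change was 0.22 for the 12 and 0.15 for the 56, so the larger KO responses were also the less precise. What these libraries have in common is not recorded in the labels, and its part in the responses was not tested. Without the 12 and the 3 tRNA synthetase genes, the median response of the members was 0.93 in WT and the median difference of the responses was −0.26.

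**Figure D3:**
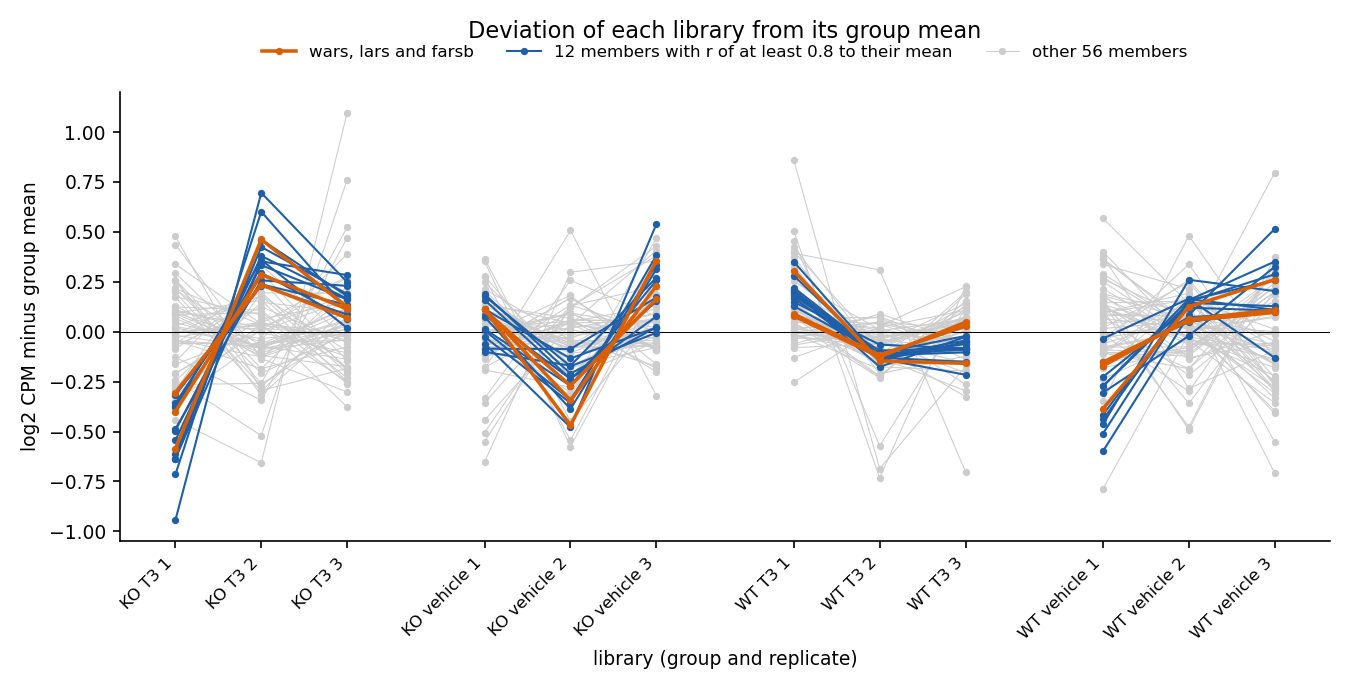
Log2 CPM of each member in each library minus its group mean (vertical axis), by group and replicate, for wars, lars and farsb, for the 12 members whose deviations followed their mean (r of at least 0.8) and for the other 56 members. The coloured lines dip together in KO T3 replicate 1, KO vehicle replicate 2 and, but for one of the 12, WT vehicle replicate 1.

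Other members did not belong to these groups. *trib2*, a tribbles pseudokinase and the named member with the highest level per length (127 TPM in KO T3, 92.9 TPM in KO vehicle, 129 TPM in WT T3 and 86.6 TPM in WT vehicle), had nearly the same values in both genotypes. *cyp27a1*, a sterol hydroxylase, had a mean of 2.56 CPM in KO T3, 1.52 CPM in KO vehicle, 3.33 CPM in WT T3 and 1.24 CPM in WT vehicle. The peptide transporter gene *slc15a2* was low, with 0.843, 1.18 and 0.847 CPM in KO T3, 0.625, 0.493 and 0.814 CPM in KO vehicle, 2.89, 1.17 and 2.37 CPM in WT T3, and 0.525, 0.563 and 0.758 CPM in WT vehicle, so that 1 WT T3 library lay among the KO T3 libraries.

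The member with the highest level, XLOC_014132, has no symbol in the sources used here. It had 1125, 1288 and 1137 CPM in KO T3, 657, 627 and 521 CPM in KO vehicle, 2480, 2066 and 2427 CPM in WT T3, and 365, 429 and 300 CPM in WT vehicle, and its groups stood in the order found for *nfic*. By ratio, the strongest member was XLOC_009068, named here after its values were seen, which was 5.48-fold higher with T3 in KO and 22.8-fold higher in WT; it had 13.3, 7.72 and 8.34 CPM in KO T3, 1.502, 2.49 and 1.36 CPM in KO vehicle, 17.2, 14.3 and 13.3 CPM in WT T3, and 0.477, 0.924 and 0.569 CPM in WT vehicle.

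The rule compared T3 with vehicle within each genotype. It did not compare the genotypes with each other, so KO was tested against WT in vehicle and in T3, contrasts that share no library. The libraries are nevertheless those of the rule, which favours low vehicle values and high T3 values in either genotype, and counts are therefore set beside the same counts over all features. As far as the sources go, replicates are separate pools of tadpoles, and p-values measure the spread between these pools.

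In vehicle, 3 members were higher in KO and none was lower (quasi-likelihood test of edgeR, threshold 0.05 for the adjusted p), against 0.164% of 22018 features called higher and 0.413% called lower. The 3 were *nfic* (log2 fold change 0.79 ± 0.08, adjusted p = 0.000594), *pappa* (0.79 ± 0.07, adjusted p = 0.000426) and XLOC_014132 (0.75 ± 0.13, adjusted p = 0.0189), and in each all 3 KO libraries were above all 3 WT libraries. The call of XLOC_014132 was lost in the edgeR fit of the vehicle groups alone (adjusted p = 0.119) and in fits without WT vehicle replicate 1 (0.0765), KO vehicle replicate 1 (0.0987) or KO vehicle replicate 2 (0.0695). Most members leaned the other way: 51 had a negative log2 fold change, the median was −0.17 against −0.003 over all features, and 15 members were lower in KO at an unadjusted p under 0.05, against 7.47% of all features. The log2 fold change was positive for 20 members. At the same limit 10 members were higher in KO, but the share of all features is not given here, and nothing is read from that count. Counts in the alternatives are given without such a share and show only how the calls moved. DESeq2 called 6 members higher and 2 lower. Without WT vehicle replicate 3 edgeR called 3 members lower, and without KO T3 replicate 1, which enters only the estimate of the spread, it called 5 higher.

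Separate groups of libraries in vehicle were seen for 11 members with KO higher and 15 with KO lower, against 4.98% and 10.2% of all features. The lower ones included *cemip*, *sox12*, *adamts3*, *adamts10* and *wisp1*, whose log2 fold changes lay between −0.99 ± 0.24 (*wisp1*, adjusted p = 0.0949 in edgeR) and −0.31 ± 0.14 (*sox12*, adjusted p = 0.372 in edgeR). None of these passed the threshold. The 293 gene models that met only the WT part had a median of 0.08 in this contrast, with 8 called higher. The sets were not tested against each other, because the KO vehicle libraries decided which set a gene model fell into.

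With T3, 25 members were lower in KO than in WT and none was higher (edgeR), against 3.18% of all features called lower and 3.7% called higher. All features, however, were not chosen for a response in WT, as the members were. Of the 293 gene models that met the WT part alone, 42.3% were called lower, against 35.2% of the members. The excess over all features is therefore not particular to the members. The sign was negative for 59 members, the median was −0.32 against 0.01 over all features, and the libraries of the genotypes were separate with KO lower for 33 members and with KO higher for 1 (XLOC_035708, named after its values were seen), against 17.9% and 16.1% of all features. Of the 293 gene models of the WT part alone, 244 were separate with KO lower and 1 with KO higher, so this separation is not particular to the members either. At an unadjusted p under 0.05 in edgeR, 1 member was higher in KO, against 12.8% of all features. DESeq2 called 1 higher, a count for which the share over all features is not given here. Of the 25, 16 had a WT log2 fold change of 1 or more. Both *nfic* and XLOC_014132 were among the 25 and had been called in vehicle in the opposite direction. Without WT T3 replicate 1 or 3 the number of members called lower was 15 and 14, counts given without the share over all features in those fits.

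Among named members that passed the threshold the greatest differences with T3 were those of *inhbb* (−1.63 ± 0.22, adjusted p = 0.00205), *mmp11* (−1.41 ± 0.10, adjusted p = 1.56e-05), *wisp1* (−1.30 ± 0.22, adjusted p = 0.00687) and *pmepa1* (−1.21 ± 0.12, adjusted p = 0.000281), all in edgeR. *fhod3*, a formin of the actin cytoskeleton, differed by −0.93 ± 0.15 (adjusted p = 0.00579), with 1.86, 1.91 and 1.83 CPM in KO T3 against 3.58, 3.75 and 3.35 CPM in WT T3. These genes kept their call in every alternative that was run, as did *nfic* (−0.68 ± 0.07), *nacc2* (−0.66 ± 0.08) and *bcl6* (−0.66 ± 0.09), which the 3 KO T3 libraries and the 3 WT T3 libraries separated. For the transcription and chromatin list 4 of 6 members were lower in KO, and for the matrix list 2 of 6. Over the whole lists, whose genes the study called in WT, 15 of 30 and 5 of 19 gene models were called lower. The share over all features was 3.18%. Of the gene models in these lists, 22 and 9 met the WT part of the rule, so the counts are not particular to the members.

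The remaining named calls depended on single libraries. *sox12* (−0.71 ± 0.14, adjusted p = 0.0123) was not called without WT T3 replicate 3 (0.0648) or KO T3 replicate 3 (0.0549), and *adamts3* (−0.60 ± 0.12, adjusted p = 0.0161) was not called without WT T3 replicate 1 (0.0603), WT T3 replicate 3 (0.0747) or KO T3 replicate 3 (0.0604). *clec11a*, a secreted C-type lectin, and *tekt3*, a ciliary microtubule protein, had adjusted p of 0.0181 and 0.0189, which reached 0.0757 and 0.0839 without WT T3 replicate 1; each also lost its call without WT T3 replicate 3 (0.0717 and 0.0632) or KO T3 replicate 2 (0.0597 and 0.0640), *clec11a* without KO T3 replicate 1 (0.0598) and *tekt3* without KO T3 replicate 3 (0.0726). The gene model shared by *pdzd3* and *nlrx1* (−0.86 ± 0.22, adjusted p = 0.0393) and *slc15a2* (−1.17 ± 0.31, adjusted p = 0.0432) were the least stable. Among fits that left out 1 library, the shared gene model lost its call without any 1 of the T3 libraries or without KO vehicle replicate 3, at an adjusted p of 0.0521 to 0.153 in edgeR. *slc15a2* lost it without any 1 of the T3 libraries but WT T3 replicate 2, and without KO vehicle replicate 1 or WT vehicle replicate 2, at an adjusted p of 0.0505 to 0.181 in edgeR, and in limma-voom (0.0528). Both calls were also lost in the edgeR fit with the replicate number as a block.

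**Figure D4:**
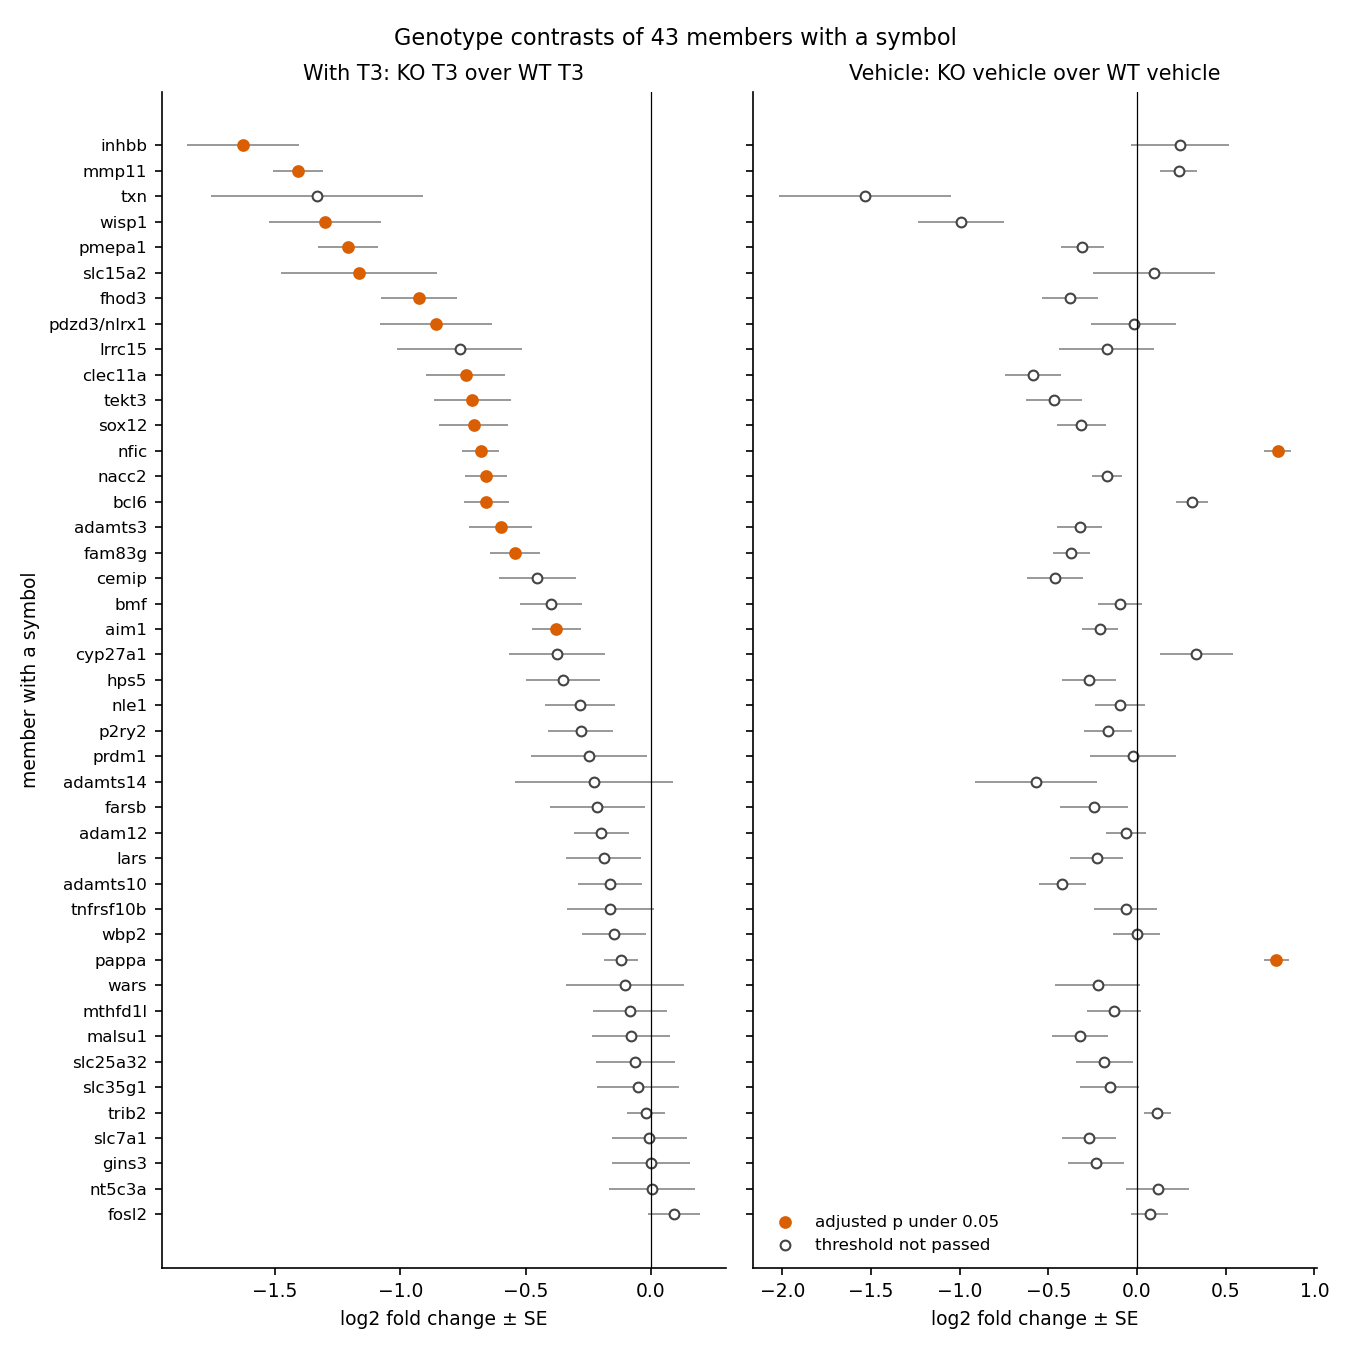
Log2 fold change and SE of 43 of the 44 members with a symbol, for KO T3 over WT T3 (left) and KO vehicle over WT vehicle (right); filled points passed an adjusted p of 0.05 in edgeR. Of the filled points on the left, all 16 are below 0, and those on the right, nfic and pappa, are above 0.

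None of the 12 members that followed the tRNA synthetase genes was called with T3, nor were *wars* (−0.11 ± 0.24, adjusted p = 0.833), *lars* (−0.19 ± 0.15, adjusted p = 0.483), *farsb* (−0.21 ± 0.19, adjusted p = 0.541) and *slc7a1* (−0.01 ± 0.15, adjusted p = 0.986) in edgeR. Their standard errors were larger than that of *nfic*, so small differences were not detectable for them. *pappa* also ended close to WT (−0.12 ± 0.07, adjusted p = 0.300), with 36.8 to 41.5 CPM in KO T3 and 42.6 to 43.8 CPM in WT T3. The 293 gene models of the WT part alone had a median of −0.46 with T3, with 1 called higher and 124 lower.

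As for the pathway itself, 17 gene models of the list of thyroid hormone signalling and receptor cofactors could be paired, all through the study's table. With T3 7 of them were higher in KO, and 15 were higher and 1 lower in WT (edgeR), against 0.2% of all features higher and 0.0545% lower in KO and 5.37% higher and 5.53% lower in WT. Of the 7, 6 were gene models set aside by identifier: *klf9*, a zinc finger factor, *thrb*, *dio3*, the deiodinase that inactivates the hormone, *nr3c2*, the mineralocorticoid receptor, and a pair of gene models of *thibz*, a bZIP factor. The coactivator genes *ncoa1* (1.08 and 1.196) and *ncoa3* (1.16 and 1.23) and the receptor genes *rxrb* (1.06 and 1.27) and *rara* (1.130 and 1.39) were below both limits, and *rcor2*, a corepressor, met the WT limit alone (1.05 and 1.86). Over all features edgeR called 15 members higher with T3 in KO and 54 in WT, against 0.2% and 5.37% of features; the rule used both contrasts, and nothing is read from these counts. Lists with no member were heat shock and ER chaperones (14 gene models), axon guidance, synapse and neuropeptides (14), and epithelial and inner ear type genes (11), of which 6, 6 and 10 met the WT part of the rule. Of all 373 gene models that met the WT part, 293 did not meet the KO part. Absence from lists this short is therefore not read as a trait of the members.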

How the data were processed

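RNA of 12 tadpole brain libraries was sequenced by the study. According to its methods the authors aligned reads with Bowtie to the X. tropicalis v4.1 genome and counted them with RSEM on a custom gene model; CASAVA 1.8.2 and cutadapt are named in the submitters' processing notes, with no version of RSEM given in the sources used here. Deposited by the authors were expected counts per feature, which need not be whole, and, for each library TPM, FPKM and feature lengths from the same counts; FPKM values deposited by the authors were not used. All columns belonged to the 12 libraries.

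CPM divides the deposited count by the library's total. Counts rounded to whole numbers were scaled by TMM, filtered by filterByExpr over the 4 groups, and tested by the quasi-likelihood method of edgeR 4.0.16 in R 4.3.3, in 1 fit of the 4 groups, with Benjamini-Hochberg adjustment over 22018 features and a threshold of 0.05. The study used limma; limma-voom (limma 3.58.1) and DESeq2 1.42.0 were alternatives, with other scaling, no filter, only the groups compared, a replicate block, and each library left out. Figures used matplotlib 3.10.9. Steps were tested on simulated data.

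The members, lists and tests were chosen with earlier results of these data known. Genes named are members in a list, the 12 with the highest TPM in WT T3, the 5 with the largest and 5 with the smallest share of the WT response kept among those with at least 5 CPM in WT T3, at most 10 called in each genotype contrast, at most 2 without a symbol, and those nearest each limit; further names are given as such, and some genes that this rule takes in are not reported here. The lists were thyroid hormone signalling and cofactors, transcription and chromatin, insulin, IGF and TGF-beta signalling, matrix and proteases, ribosome biogenesis and tRNA synthesis, chaperones, axon and synapse, transport and metabolism, and epithelium and inner ear. Symbols came from the study's supplementary table, of which part was used here, and paired 1542 features. Correlations used log2(CPM + 0.1). Promoter sequences and coordinates were not analysed here.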

Additional observations from a re-analysis of the deposited data

How the results depend on the processing

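No called gene changed direction in any alternative: of 28 calls of members in the genotype contrasts, 15 were kept in all of up to 18 alternatives, and over all calls and alternatives 438 were kept and 64 lost. DESeq2 gave 6 members higher and 2 lower in vehicle, and 1 higher with T3. With 1 library left out, the members called in vehicle were 2 to 5 higher and 0 to 3 lower, those called with T3 were 14 to 26 lower and 0 to 1 higher, and the rule took in 62 to 90 members. In this section, counts of members called in an alternative are given without the share over all features in the same fit. They show only how the calls moved, not whether members moved more than other features. Limits of 1.5-fold in both genotypes left 35 members, TPM in place of CPM gave 79, of which 67 were shared, and CPM by TMM library sizes gave 68, also with 67 shared. Chosen after seeing the data, leaving out wars, lars, farsb and the 12 members that followed them moved the median log2 fold change to 0.93 for T3 in WT, −0.26 for the difference of the responses and −0.46 for KO T3 over WT T3. The causes were not tested. Replicate numbers are shared by the groups. Deviations of same-numbered libraries were correlated at −0.085 to 0.072, and those of differently numbered libraries at −0.142 to 0.155. No pairing by number shows in these values, which do not settle whether the samples were paired. With the replicate number as a block 3 members were called higher in vehicle and 21 lower with T3. The gene model of *pdzd3* and *nlrx1* (adjusted p = 0.0568 in edgeR) and *slc15a2* (0.0733) were no longer among them. Depth limited 3 members with fewer than 10 counts in a library.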

Other observations

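Outside the members, 100 XLOC gene models with a mean of at least 1 CPM followed the deviations of *wars*, *lars* and *farsb* within groups at r of at least 0.8 over the 12 libraries, 21 of them with a symbol. They were looked at after the values were seen and are given as a description. Several serve translation: *farsa*, the partner subunit of *farsb* (r = 0.91), was 1.54-fold higher with T3 in KO and 1.47-fold higher in WT, *aimp2*, a scaffold of the tRNA synthetase complex (0.95), 1.297-fold and 1.201-fold, and *eif2s1*, the alpha subunit of the initiation factor eIF2 (0.94), 1.46-fold and 1.29-fold. *mtr*, methionine synthase (0.88), which missed the WT limit, was 1.77-fold and 1.399-fold higher, and *myc* (0.81) 1.64-fold and 1.37-fold. The KO T3 and KO vehicle libraries overlapped for *farsa* and *eif2s1*. These genes were picked from the 21, and others of the 21 had KO ratios near 1. Among those were *ddx52* of the ribosome list (0.993 in KO and 1.48 in WT), *ndufb7* (1.03 and 1.48) and *fam136a* (1.04 and 1.58). The ratio of T3 to vehicle was above 1 for 85 of the 100 in KO and for 72 in WT, with medians of 1.37 and 1.17, against 54.7% in KO and 46.5% in WT of the 15121 XLOC gene models outside the members at this level, with medians of 1.01 and 0.987. All KO T3 libraries lay above all KO vehicle libraries for 43, and all WT T3 libraries above all WT vehicle libraries for 37, against 8.79% in KO and 15.3% in WT of all features tested. The cause was not tested.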
